A study of Helix lucorum with 35 samples.

Results

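In experiment E1, the left and the right side of the same parietal ganglia (PaG) were sequenced separately, so that each of 6 snails *Helix lucorum* gave 1 left and 1 right library. These 12 libraries, of 35 samples in the whole series, were chosen by their labels for experiment and hemisphere, 6 left and 6 right, and no measured value was used. On each side 3 libraries were activated and 3 were controls. In snails 1 to 3 the left side was activated and the right side was the control, and in snails 4 to 6 it was the reverse. The isolated and desheathed ganglia of all 6 snails were kept cold in saline rich in calcium and magnesium, and the control side was cut off and frozen before any drug was given. The other side was then kept in 20 µM anisomycin, an inhibitor of protein synthesis, for 10 min, and in anisomycin with 100 µM caffeine and 5 µM serotonin for 20 to 25 min. By the methods, the snails were adults of the subspecies *taurica*. Their exact age is not given in the sources used here.

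The sources differ on what a left library holds. By the methods of the study, the left pieces of E1 carried the visceral ganglion that adheres to the left PaG, and the right pieces did not, whereas another passage of the study says that the visceral ganglion took no part in the experiments. If they carried it, the tissue that was cut and the body side cannot be told apart in E1. In the statements that follow, left and right mean the piece of tissue named so in the labels.

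The central ring of a land snail is built of paired ganglia, but its lower arc is asymmetric, since the single visceral ganglion is joined more closely to one side than to the other and some large identified neurons occur on 1 side only. Ganglia of gastropods hold large neurons that release peptides, and the transcripts of a peptide precursor can be very abundant in the few cells that make it. Immediate early genes, the subject of the study, are genes whose transcription starts within minutes of a stimulus without new protein synthesis. The sides of 1 animal are used as each other's control in such work, so whatever differs between the sides is part of the material in which activated and control libraries are compared.

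The values are counts of reads on contigs, which are assembled transcript fragments known by a number. Of the contigs described here, 1 was given a gene name by the study, and it was contig 1398029, assigned to c-fos. The other contigs are therefore described by number and level, and whether they belong to the same gene was not tested. Levels are given as CPM, counts scaled to the same library size, and are not divided by contig length, so levels were compared between sides and not between contigs.

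The left libraries held 3513695 to 30664598 counts and the right libraries 4704366 to 35225552. The left library was the deeper one in 3 of 6 snails (exact sign-flip permutation test over 6 snails, two-sided, p = 0.6875). After all libraries were thinned to 1 depth, 205900 to 251256 contigs were detected in left and 214838 to 240951 in right libraries (same test, p = 0.53125). The 100 most abundant contigs took 22.1 to 27.2% of the counts on the left and 23.2 to 26.4% on the right (p = 0.46875). With 6 snails, this test cannot give a p below 0.03125.

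The c-fos contig followed the activation labels and not the sides. c-fos encodes a subunit of the AP-1 transcription factor and is a classic immediate early gene. On the left, contig 1398029 stood at 116, 59.9, and 51.0 CPM in activated snails 1 to 3, and at 14.8, 4.16, and 2.85 CPM in control snails 4 to 6. On the right, it stood at 1.56, 10.7, and 3.04 CPM in control snails 1 to 3, and at 42.5, 52.0, and 47.2 CPM in activated snails 4 to 6. Each activated library was thus above each control library, and the left side was higher in 3 of 6 snails. The side difference was 0.74 ± 0.46 in log2 units (SE, edgeR's quasi-likelihood test, adjusted p = 1), whereas the activation term of the same fit was 3.49 ± 0.46 (adjusted p = 0.0247). With contigs limited to those of at least 1 CPM in 6 libraries, the activation term no longer passed the threshold (adjusted p = 0.0941).

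Which contigs differed between the sides was asked with a fit that took the snail and the activation as factors. Of 387774 contigs tested, 624 (0.161%) were called (more than 2-fold apart, adjusted p below 0.05), with 337 higher on the left (0.0869%) and 287 higher on the right (0.0740%). In the same fit, 398 contigs (0.103%) were called for activation. The median difference of the contigs higher on the left was 3.27 on the log2 scale (middle 50% from 2.54 to 4.23), and that of the contigs higher on the right was -3.04 (from -4.69 to -2.29), beside a median of 0.02 over all contigs tested. In such bulk samples, fewer cells of a type and less RNA in each cell cannot be told apart. On the left, 214 contigs differed more than 8-fold and 38 more than 32-fold, and on the right 145 and 66, with the 8 left and 6 right contigs that had no counts on the other side set to their bound against a floor of 3 counts, which left the medians as they were.

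**Figure D1:**
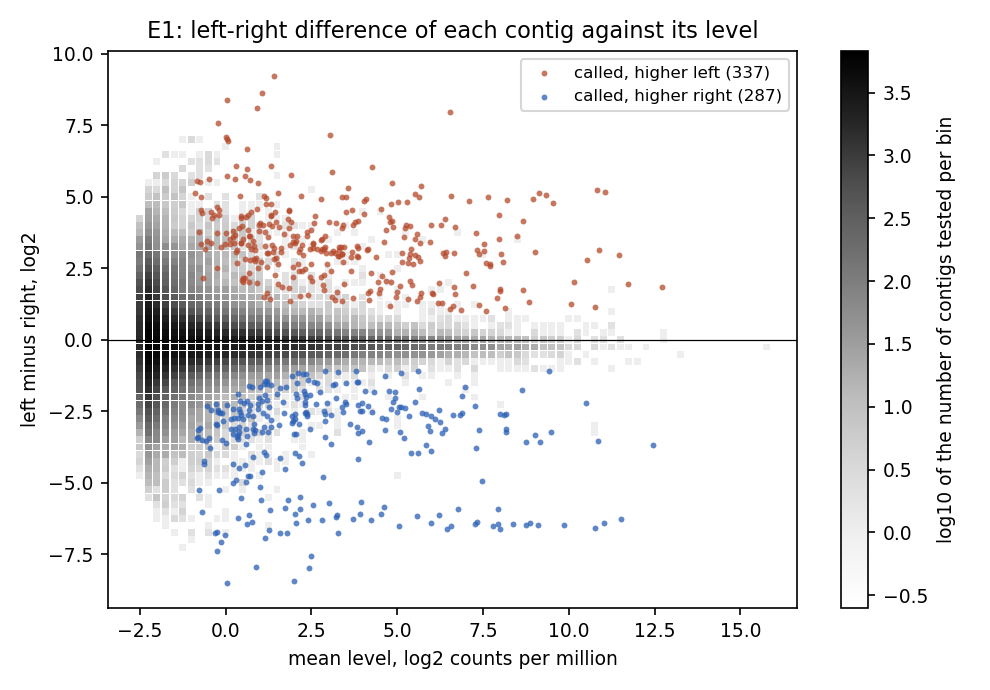
Left minus right difference (log2) of each contig in E1 against its mean level (log2 CPM). Grey squares are bins of contigs not called, shaded by the log10 of their number, and coloured points are the 337 contigs called higher on the left and the 287 called higher on the right.

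The calls reached the contigs with the highest CPM, a ranking that also depends on contig length. Among the 100 contigs with the highest mean CPM, 10 were called higher on the left and 7 higher on the right (17.0%, beside 0.161% of all contigs tested). Of 10523 contigs above 10 CPM, 2.40% were called, of 69143 contigs between 1 and 10 CPM 0.438%, and of 308108 contigs below 1 CPM 0.0221%. The test detects a difference more easily at higher counts, and how much of this rise comes from that was not tested. Summed over the called contigs, those higher on the left took 4.33 to 7.38% of a left library and 0.935 to 1.36% of a right one. Those higher on the right took 4.61 to 6.63% of a right library and 0.316 to 0.514% of a left one. These sums describe contigs that were chosen for the difference and test nothing.

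Of the 337 contigs higher on the left, 253 were higher on the left in 6 of 6 snails and 44 in 5, and of the 287 higher on the right, 247 were so in 6 of 6 snails and 16 in 5. The other 40 and 24 contigs had this direction in 4 snails or fewer, and their calls rested on part of the snails. All left libraries lay above all right ones for 213 of the 337, and all right libraries above all left ones for 209 of the 287, together 422 (0.109% of the contigs tested). Over all contigs tested, the sides did not overlap in 425 contigs higher on the left (0.110%) and 520 higher on the right (0.134%). The number of calls was lower whenever any 1 snail was left out. It was 413 without snail 2, 413 without snail 3, 309 without snail 4, and 378 without snail 5, and 499 and 454 without snails 1 and 6.

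The 12 contigs with the smallest p among those higher on the left were 6.50- to 21.3-fold higher there, with adjusted p-values of 7.08e-08 to 1.09e-06 in edgeR's quasi-likelihood test. For each of them all 6 left libraries were above all 6 right ones. Contig 949259 was at 2614 to 4312 CPM on the left (median 3351) and at 217 to 521 CPM on the right (median 415). Its difference was 3.16 ± 0.09 on the log2 scale (SE, adjusted p = 7.08e-08). Within single snails it ran from 3.47 to 3.59 in snails 1 to 3 (left activated) and from 2.61 to 3.02 in snails 4 to 6 (right activated). The contig was thus counted in each right library too.

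Contig 613214 stood at 4218 to 6235 CPM on the left and 459 to 764 CPM on the right (log2 2.98 ± 0.10, adjusted p = 1.31e-07). Contig 778838 stood at 2005 to 3488 CPM on the left and 244 to 412 CPM on the right (2.80 ± 0.12, adjusted p = 1.09e-06), and the 244 was the right library of snail 2, below 5 others between 373 and 412. The ranges of the sides of these contigs lay far apart, and no library of either side came near the other side.

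Contigs 1791995, 92558, and 171083 were 8.47-, 8.80-, and 8.29-fold higher on the left, beside 8.94-fold for contig 949259. Once the mean of each side was removed, these 3 contigs were among the 5, of 252 others higher on the left in all 6 snails, whose level ran in parallel with contig 949259 over the 12 libraries with a Pearson r above 0.9. This is a description over libraries that share their snails and depth.

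Other contigs of the 12 varied more between snails. On the left, contig 354488 was at 115 CPM in snail 2 and at 10.0 and 10.8 CPM in snails 5 and 1. The right library of each snail was lower, and within a snail the left level was 1339 to 2555% of the right level. On the log2 scale the difference within a snail ran from 3.52 to 4.11, beside 4.15 in the fit. The values within a snail carry a constant added to each CPM. It lowers the difference where the right level is low, as at 0.42 CPM in snails 1 and 5. Contig 1079449 had the largest fold of the 12, with 18.5 to 49.8 CPM on the left and 1.01 to 2.11 CPM on the right (log2 4.41 ± 0.18, adjusted p = 7.58e-07). Contig 1869180 was at 445 to 1095 CPM on the left and 18.1 to 74.8 CPM on the right, an 18.1-fold difference. Over the 12 contigs, the right side held a median of 8.91 to 15.6% of the left level, depending on the snail.

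**Figure D2:**
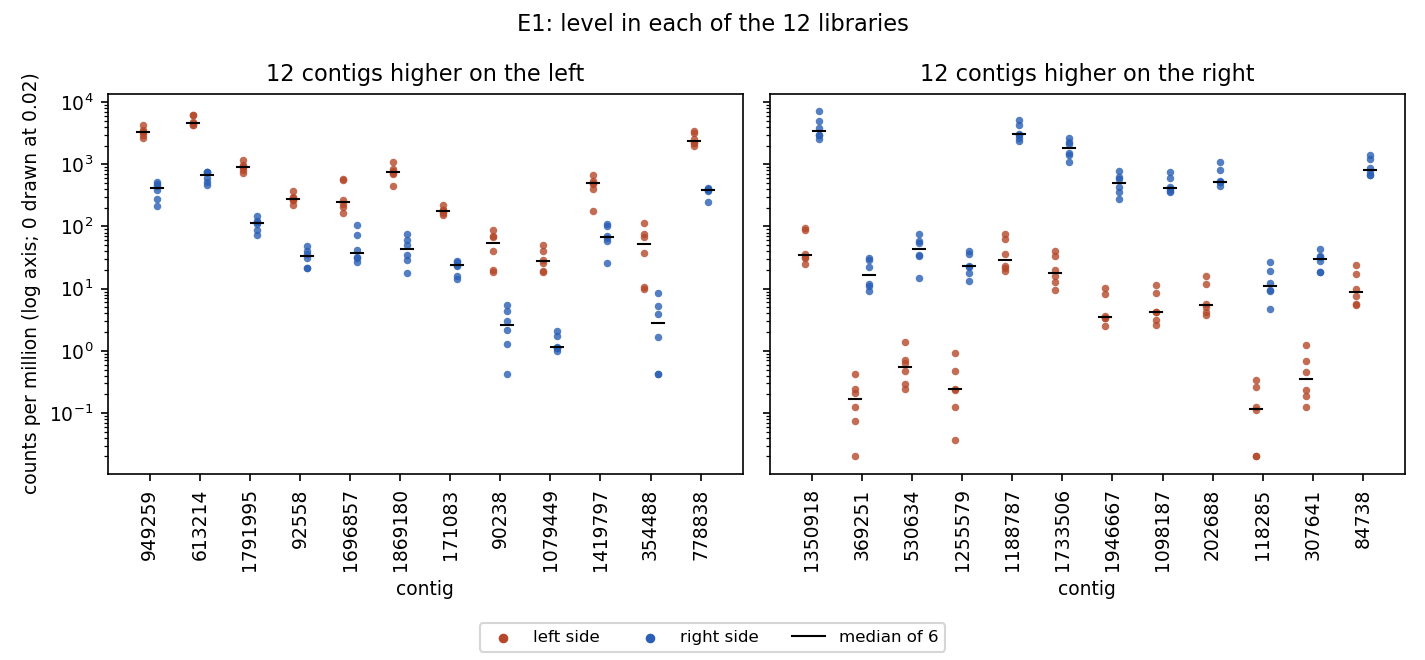
Level (CPM, log axis, values of 0 drawn at the lower end) of the 12 contigs with the smallest p on each side, in each of the 6 left and 6 right libraries of E1, with the median of each side as a bar. The sides of all 24 contigs are apart, by a median of -6.43 on the log2 scale for the contigs higher on the right and of 3.11 for those higher on the left.

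Of the 3 called contigs with the highest mean CPM on the left, 613214 was 7.89-fold higher there, and the other 2 differed by a smaller factor. Contig 58320 was at 8925 to 12775 CPM on the left (median 10575) and at 2236 to 3785 CPM on the right (median 2870). The difference was 1.86 ± 0.10 on the log2 scale, 3.63-fold (adjusted p = 4.36e-06), and held in each snail between 1.48 and 2.06. Contig 244294 was at 4089 to 6470 CPM on the left and 1041 to 1683 CPM on the right, 3.83-fold (adjusted p = 1.41e-06). Activation moved neither, with terms of -0.01 ± 0.09 and 0.07 ± 0.08 (adjusted p = 1 for both).

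A further set on the left differed more but unevenly. Contigs 1043949 and 380676, chosen after their values were seen because they had the largest folds among the called contigs higher on the left with a mean above 1000 CPM, were 38.2- and 36.4-fold higher there (log2 5.25 ± 0.50 and 5.18 ± 0.49, adjusted p = 0.000603 and 0.000606). In the left library of snail 1 they stood at 682 and 698 CPM, whereas the other 5 left libraries held 2346 to 5158 and 2662 to 6237 CPM. In the right library of snail 1 they were at 149 and 156 CPM, above the other right libraries, at 40.7 to 106 and 47.6 to 129 CPM. The difference in snail 1 was thus 2.19 and 2.15 on the log2 scale, beside up to 6.74 and 6.69 in the other snails.

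Without snail 1 the difference of contig 1043949 was 5.87 (adjusted p = 6.32e-05), and without snail 4 it was 5.25 and no longer called (adjusted p = 0.0505). With a fit robust to outlying contigs, a choice made after the data were seen, neither of these 2 contigs was called (adjusted p = 0.441 and 0.442). Over the 12 libraries, with the mean of each side removed, the pair ran together (r = 0.993), and 24 of 252 other contigs higher on the left in all snails had an r above 0.9 with contig 1043949. The left library of snail 1 lay apart in this pair, so an r above 0.9 can rest largely on it. The summed level of the 337 contigs called higher on the left was lowest in the left library of snail 1 (4.33%, beside 6.63 to 7.38% in the other 5). The 337 include the pair and these 24 contigs, so the sum is not a separate observation.

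The contigs with the smallest p on the right differed far more than those on the left. The 12 of them were 67.4- to 108-fold higher on the right, with adjusted p-values of 1.63e-08 to 1.31e-07, and the sides of none overlapped. Contig 1350918 stood at 2515 to 7264 CPM on the right (median 3407) and at 25.3 to 94.1 CPM on the left (median 34.7). Its difference was -6.42 ± 0.14 on the log2 scale (SE, adjusted p = 1.63e-08), between -6.85 and -5.86 in single snails.

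Contig 1188787 was at 2388 to 5209 CPM on the right and 19.2 to 74.4 CPM on the left (-6.58 ± 0.18), and contig 1733506 at 1099 to 2616 and 9.39 to 40.4 CPM (-6.48 ± 0.18). Contig 369251 was at 9.14 to 31.1 CPM on the right and at 0 to 0.417 CPM on the left (-6.76 ± 0.26). For these contigs the left level was a small part of the right level. Within a snail it was 0.712 to 1.71% for contig 1188787, 0.752 to 1.80% for 1733506, and 0 to 2.09% for 369251. Over the 12 contigs, the left side of a snail held a median of 0.853 to 1.76% of its right side, with the lowest share in snail 1 and the highest in snail 4.

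Snails 2 and 4 held the most of these contigs on both sides. The 12 contigs summed to 19340 and 15083 CPM in the right libraries of snails 2 and 4, and to 8380 to 9950 CPM in the other right libraries. In the left libraries they summed to 238 and 267 CPM in snails 2 and 4, and to 69.5 to 108 CPM in the others. Snails 2 and 4 belong to different arrangements of activation, so the highest sums occurred under both. With the mean of each side removed, 7 of 246 other contigs higher on the right in all snails had an r above 0.9 with contig 1350918, among them 202688, 1098187, 84738, and 1188787 of the 12 (202688, for example, at 452 to 1095 CPM on the right and 3.76 to 16.1 CPM on the left).

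The called contig with the most counts on the right was 970889. It stood at 10319 to 14343 CPM in the right libraries of 5 snails and at 1034 CPM in that of snail 2, and at 532 to 808 CPM on the left. The right library of snail 2, which held the most of contig 1350918, thus held the least of contig 970889. The difference was -3.67 ± 0.36 on the log2 scale (adjusted p = 0.000845), with -0.96 in snail 2 and down to -4.55 in the others. It was -4.14 without snail 2 (adjusted p = 2.60e-05), and it was not called without snail 1 (adjusted p = 0.0530), without snail 4 (0.0636), or with the robust fit (0.476). With the mean of each side removed, 9 of 246 contigs higher on the right had an r above 0.9 with it. Contig 1223391 of these, for example, had a difference of -0.98 in snail 2 and of -4.40 to -3.68 in the other snails. The right library of snail 2 lay far from the rest, so an r above 0.9 can rest on this 1 library.

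Contig 1611265 was at 2575 to 9348 CPM on the right and 32.3 to 153 CPM on the left (-6.27 ± 0.33, adjusted p = 4.74e-06). Its sides differed most in snail 6 and least in snail 5, at -7.52 and -4.58. It did not pass the threshold with the robust fit (adjusted p = 0.0650).

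**Figure D3:**
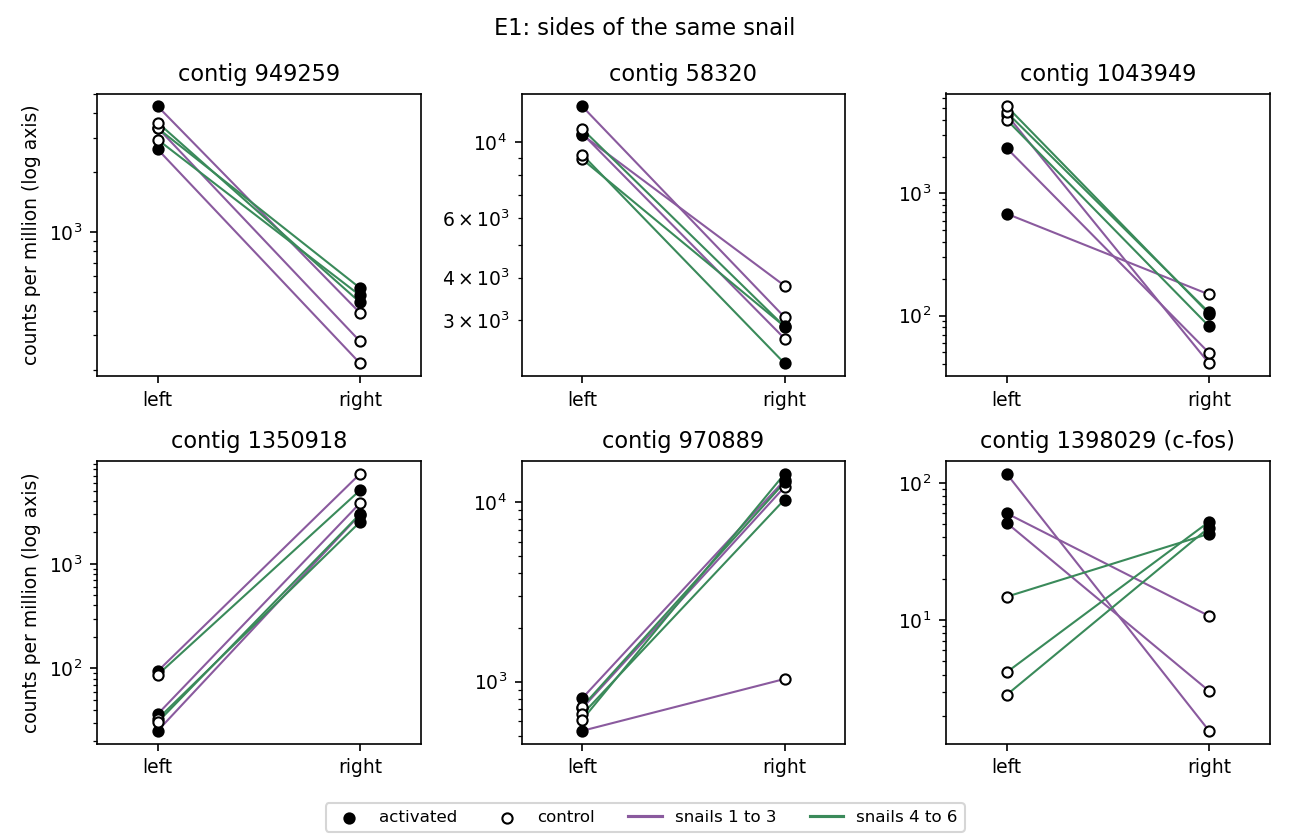
Level (CPM, log axis, a separate scale in each panel) of 6 contigs in the left and right library of each snail of E1, with lines joining the sides of 1 snail, filled points for activated and open points for control libraries. Contigs 949259, 58320, and 1043949 are higher on the left and 1350918 and 970889 on the right in all 6 snails, whereas the lines of the c-fos contig 1398029 cross with the activation.

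Some contigs had counts on 1 side only. In 15 contigs each left library held at least 1 count and no right library any, and in 11 contigs it was the reverse. Their total counts over the 6 libraries were 14 to 410 and 16 to 117. Contig 531807 had 410 counts on the left, 28 to 134 a library, and 0 on the right, which made it at least 111-fold higher on the left against a floor of 3 counts over the 6 right libraries (adjusted p = 0.00128). Contig 931626 had 117 counts on the right, 2 to 61 a library, and 0 on the left, at least 47.8-fold higher on the right (adjusted p = 0.0476, and 0.0842 to 0.428 when any 1 snail was left out). The other 24 contigs of this kind were not called, among them 1526798 with 95 and 182703 with 48 counts on the left, and 745010 and 287382 with 62 counts each on the right. A count of 0 limits these transcripts at this depth and does not show that they are absent.

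Whether a contig called on a side behaved so in a snail that had no part in the call was described by leaving out 1 snail at a time. Of the contigs called higher on the left without snail 1, 234 of 307 (76.2%) were higher on the left in snail 1. In the other 5 snails this share was between 90.0 and 98.1%. For contigs called higher on the right, the share that was higher on the right in the left-out snail was between 90.3 and 96.6%. Over all contigs with counts in the left-out snail, the sign was shared in 49.2 to 53.3%. Snail 1 was the lowest for the left contigs, with a median difference of 1.49 on the log2 scale for those called without it, and not for the right contigs, with -2.33.

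The left-right profiles of whole libraries were compared between snails. Over the 30227 contigs that averaged 50 or more counts, the within-snail difference correlated between snails of the same arrangement of activation with a Pearson r of 0.289 to 0.411 (6 pairs of snails). Between snails of opposite arrangement it was -0.03 to 0.364 (9 pairs, median 0.147). The contigs are not independent and the pairs share snails, so the coefficients are a description. Activation was not removed from these differences, and its effect enters them with opposite signs in snails 1 to 3 and in snails 4 to 6. How much of the coefficients comes from activation was not tested. The arrangement separates snails 1 to 3 from snails 4 to 6. A side difference that depends on activation thus cannot be told apart from a difference between these sets of snails.

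**Figure D4:**
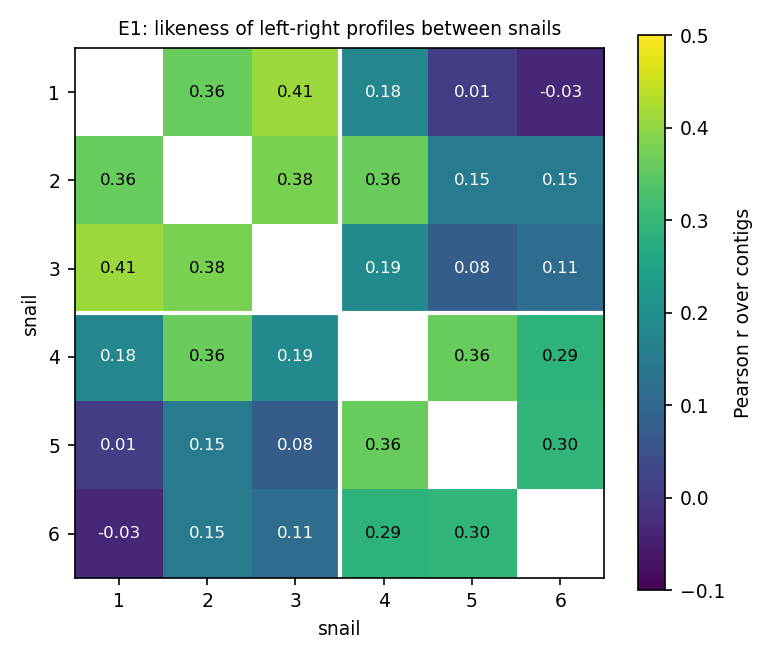
Pearson r, over 30227 contigs, of the within-snail left-right difference between each pair of snails of E1, with a white line between snails 1 to 3 (left activated) and 4 to 6 (right activated). The 6 pairs of the same arrangement lie between 0.289 and 0.411, and the 9 other pairs between -0.03 and 0.364. Activation was not removed from the differences.

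The contigs called for side were mostly not those called for activation, though the overlap was above the share over all contigs tested. Of the 398 contigs called for activation in the same fit, 4 were also called higher on the left and 7 higher on the right (2.76%, beside 0.161% of all contigs tested). None of the 24 contigs with the smallest p by side was called for activation, where their terms were between -0.75 and 0.39 in log2 units (edgeR's quasi-likelihood test, lowest adjusted p = 0.220). The lowest of these adjusted p-values belonged to contig 949259, with an activation term of 0.39 ± 0.08 beside a side difference of 3.16, and the term of largest size to contig 1255579, with -0.75 ± 0.30 beside -6.27. With contigs limited to those of at least 1 CPM in 6 libraries, edgeR's quasi-likelihood test called none for activation (4449 contigs had an unadjusted p below 0.05).

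In experiment E2, from 7 other snails, a small medial piece of the PaG with the giant interneurons Pa2 and Pa3 was cut out of each side, so that the E1 contigs could be looked up in animals that had no part in the call. Of the 12 E2 libraries, 6 were left (4 activated, 2 control) and 6 right (2 activated, 4 control), so that side and activation were partly confounded there. Without a block for the snail, 193 of 317414 contigs were called in E2 (0.0608%), 186 higher on the left (0.0586%) and 7 higher on the right (0.00221%). With the snail as a block, which rests the separation of side from activation on 1 snail, 34 were called, each higher on the left.

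Most of the left contigs of E1 were again higher on the left in E2. Of the 337, 303 were tested in E2, and 275 of these had the same sign (90.8%, beside 51.7% of all contigs tested). With the threshold of the test, 104 were called higher on the left (34.3% of the 303, and 55.9% of the 186 called in E2) and none higher on the right (1 was so at an unadjusted p below 0.05). With the block, 31 were called, and 270 of the 303 had the same sign (89.1%, beside 71.0% of all contigs tested). The median difference without the block was 5.38 on the log2 scale (middle 50% from 1.74 to 6.85), and 214 of 303 (70.6%) had a larger difference of the same sign than in E1, beside 29.7% of all contigs tested in both. A test of the difference between E1 and E2 called none of them.

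The 12 contigs named first on the left summed to 11594 to 17481 CPM in the left libraries of E1 and to 70883 to 136850 CPM in the left libraries of E2. In the right libraries they summed to 1282 to 2116 CPM in E1 and to 307 to 5351 CPM in E2. They thus took more of each left E2 library than of any left E1 library, while the right libraries of E2 spread below and above those of E1. Contig 949259 was at 14439 to 27345 CPM on the left and 29.4 to 1249 CPM on the right in E2 (log2 5.79 ± 1.07, adjusted p = 0.0824, not called), and contig 1869180 at 3349 to 6945 and 17.2 to 81.0 CPM (6.86 ± 0.65, adjusted p = 0.000370). Of the 12, 9 were called in E2, with differences of 4.88 to 6.93 over the 12.

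The 3 called contigs with the highest mean CPM on the left in E1 went apart in E2. Contig 613214 was at 19824 to 49547 CPM on the left and 60.8 to 1780 CPM on the right in E2 (log2 5.76 ± 1.05, adjusted p = 0.0788, not called). Contig 58320 was at 11144 to 15957 CPM on the left and 5581 to 24145 CPM on the right (log2 0.04 ± 0.54, adjusted p = 1). Contig 244294 was at 4475 to 6724 and 2369 to 9077 CPM (-0.03 ± 0.48, adjusted p = 1). For 58320 and 244294, the E1 difference minus the E2 difference was 1.84 and 1.99 on the log2 scale, with an unadjusted p of 0.00141 and 0.000284, but an adjusted p of 1 and 0.628. Of the 303 left contigs tested in E2, 61 lay within 1 of 0 on the log2 scale and 5 below -1. Contig 531807, with counts only on the left in E1, was among these 5 (log2 -1.03 ± 2.97). It stood at 0 to 5.08 CPM on the left and 0 to 5.51 CPM on the right in E2. Contig 1526798, on the left only but not called in E1, stood at 2.44 to 16.5 and 0 to 0.107 CPM in E2.

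For the right contigs of E1, the median difference in E2 was smaller in size than for the left ones. Of the 287, 243 were tested, and 198 had the same sign (81.5%, beside 48.3% of all contigs tested), with a median of -1.62 (middle 50% from -3.25 to -0.23). None was called in E2 with edgeR's quasi-likelihood test, with 108 (44.4%) higher on the right at an unadjusted p below 0.05, beside 1.18% of all contigs tested in both. With the block, 149 of the 243 had the same sign (61.3%, beside 29.0% of all contigs tested), and the median was -0.40, beside 0.74 over all. The activated library of snail 9 had the fewest mapped reads of the E2 libraries by the study. Without this library, 212 had the same sign (87.2%, beside 55.7%), and the median was -2.27, beside -0.10 over all. The 12 contigs named first on the right had differences of -3.99 to -3.42, none of them called.

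These 12 contigs varied widely between the E2 libraries. On the right they summed to 1652 to 71741 CPM, and on the left to 58.8 to 5619 CPM, so that the ranges overlapped, which they did not in E1. In snail 8 the left library held more than the right one, 5619 beside 1652 CPM, whereas in the other 4 snails with both libraries the right side was higher. Snail 11 had the widest gap, with 71741 CPM on the right and 273 CPM on the left. Contig 1350918 followed this, at 1461 CPM on the left and 731 CPM on the right of snail 8. Contig 970889, the right contig with the most counts in E1, stood at 0.548 to 685 CPM in all E2 libraries, of either side, below its level in the right libraries of E1.

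**Figure D5:**
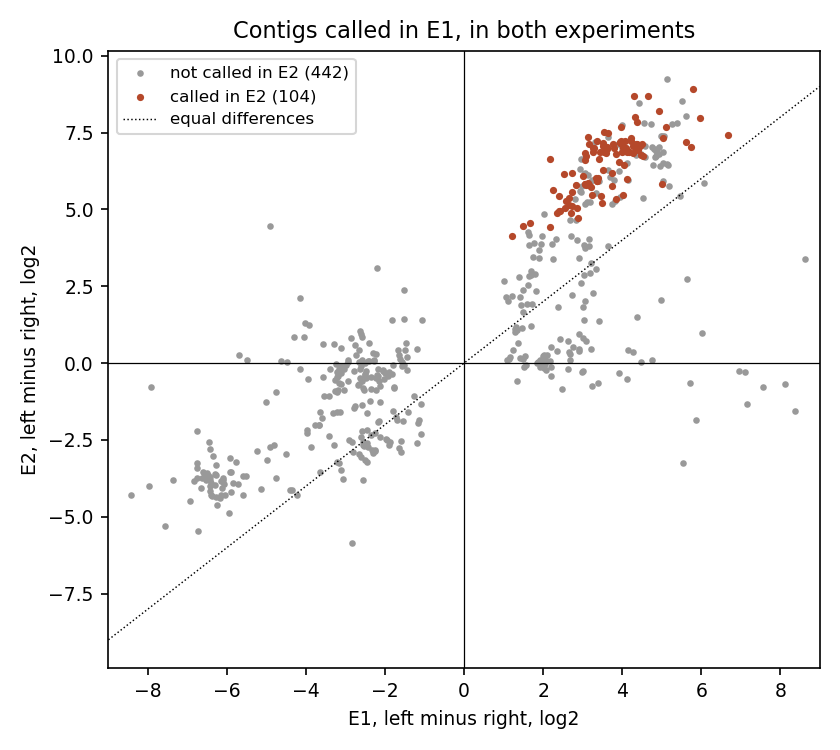
Left minus right difference (log2) in E1 and in E2 of the 546 contigs called in E1 and tested in both. The 104 contigs called in E2 are all higher on the left and lie above the line of equal differences. The SE was larger in E2 (for contig 949259 1.07, beside 0.09 in E1). Calls in E2 thus favour large differences, and the position above the line tests nothing. The contigs higher on the right in E1 spread in E2 around a median of -1.62.

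By snail, the left contigs were higher on the left in 205 to 260 of 303 contigs in each of the 5 snails of E2 with both libraries, with medians of 2.10 to 4.17 on the log2 scale. This was 67.7 to 85.8% of them, beside 35.4 to 59.1% of all contigs. The share was lowest in snail 11, with 67.7% beside 55.8% of all contigs. The right contigs were higher on the right in 103 to 194 of 243, with medians of -1.05 to 0. In snail 9, the only one of the 5 with its left side as the control, these were 42.4%, beside 17.0% of all contigs. By the study, the right library of snail 9 had the fewest mapped reads of the E2 libraries. What this depth did to the shares of snail 9 was not tested. In snail 8 the right contigs higher on the right were 57.2%, beside 49.4%, the share nearest to that of all contigs. In snail 11 contigs 1043949 and 380676 also went against their E1 direction, at 14.8 and 65.8 CPM on the left and 48.1 and 250 CPM on the right.

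The difference of the side terms of E1 and E2 was itself tested in 1 fit over both experiments. None of 294392 contigs was called (edgeR's quasi-likelihood test, lowest adjusted p = 0.0731, with 7145 contigs, 2.43%, at an unadjusted p below 0.05). Among the 546 contigs called in E1, 223 (40.8%) had an unadjusted p below 0.05. The experiments differ in the tissue that was cut, in the snails, and in the balance of activation over sides, and these cannot be told apart.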

How the data were processed

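RNA of the 12 E1 libraries, and of the 12 E2 libraries used for comparison, was sequenced by the authors after rRNA depletion with a stranded total RNA kit by the methods, while the molecule label reads poly A. The authors trimmed the reads, assembled contigs without a genome, mapped the reads to them, and deposited expected counts estimated with RSEM for each contig, neither normalized nor filtered. The submitters' processing notes name cutadapt 1.11, Bowtie 1.0.0, and RSEM 1.2.18. The labels do not describe the samples of an experiment beyond snail, side, and condition. Another 11 samples, which served the assembly, were not analysed here.

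Each expected count was rounded to an integer. Contigs were kept where the 12 libraries together held more than 10 counts, scaled by TMM, and tested with edgeR's quasi-likelihood test (edgeR 4.0.16, R 4.3.3, non-legacy dispersions) with snail, activation, and side as factors. P-values were adjusted by the BH method over all contigs tested, and a call needed an adjusted p below 0.05 together with a fold above 2. The study's methods give the filter, the scaling, and the thresholds, but not the block. The snail numbers pair the samples, since both sides of a number come from 1 animal by the labels. Over 30227 contigs, the deviations from the side means correlated by 0.712 to 0.871 between the sides of a snail. Between opposite sides of different snails they correlated by -0.247 to -0.0675. Deviations from a side mean cancel out over its libraries, so the negative sign of the latter follows from the centring. E2 was fitted without the block. Library measures were tested with two-sided exact sign-flip permutation tests over snails. The same test of named contigs is not given, since their rule fixed the direction in 6 of 6 snails. Differences within a snail are on log2(CPM + 0.5).

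Contigs were named by a rule: the 12 smallest p on each side among called contigs of the same direction in 6 of 6 snails, the 3 called contigs of highest mean CPM on each side, the 3 contigs with most counts on each side among those with counts on 1 side only, and the c-fos contig. Contigs 1043949, 380676, and others of a profile were named later. The members and rules were chosen with earlier results of these data known.

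The alternatives left out the block, the activation term, each snail in turn, or the fold threshold, and used edgeR's exact test, DESeq2 1.42.0, legacy dispersions, RLE or total scaling, no filter, a filter of 1 CPM in 6 libraries, and thinning. A robust fit and limma 3.58.1 with voom were added after the data were seen. The tests were tested on simulated counts for E1 left versus right: of 196 contigs changed 8-fold among 360104, the quasi-likelihood test called 45 (23.0%) with 5 false calls, and of 36 among 73963 with at least 1 CPM in 6 libraries 32 (88.9%) with 5 false calls. False calls were thus 10% and 13.5% of the calls, above the 5% aimed at. With limma voom and the same filter of 1 CPM in 6 libraries, 16 of 48 calls were false (33.3%). All these shares come from 1 simulated set of counts.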

Additional observations from a re-analysis of the deposited data

Results flagged for a closer look

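Dixon's ratio was computed for 76 groups of 6 libraries, made of the named contigs and 4 library measures on each side, and 3 lay above its 95% critical value, where chance gives about 1 in 20, or 3.8. The right library of snail 2 stood apart below the others in contig 778838, with 244 CPM beside 373 CPM in the next library, and in contig 970889, with 1034 CPM beside 10319 CPM. The right library of snail 1 was the deepest, with 35225552 counts beside 14732918 in the next right library.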

How the results depend on the processing

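The count of called contigs (624, with 337 higher on the left and 287 on the right) moved by more than 1.5 times under 3 of the settings that keep all snails. Without the replicate block it was 345 (184 and 161), with legacy dispersions 2202 (1268 and 934), and without a filter 1826 (1078 and 748). Leaving out 1 snail gave 309 to 499 contigs, 160 to 307 on the left and 149 to 216 on the right. Of the 624, 340 were called without the block and 440 with 1 CPM in 6 libraries, and no setting that keeps all snails turned a sign. The cause was not tested.

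With 1 CPM in 6 libraries, 0 contigs were called for activation, beside 398. In E2, the replicate block gave 34 calls in place of 193 and 31 in place of 104 of the left contigs of E1, and 1 CPM in 6 libraries gave 1 call among the right contigs in place of 0. Contigs with counts on 1 side only numbered 81 on the left and 46 on the right when 5 of 6 libraries sufficed. No named contig reversed under any setting. Of the 32 named contigs that were called, 28 to 32 kept the call under each setting that tested them. The number of contigs detected passed no test by side with or without thinning (mean left minus right 2576 and 10402, exact sign-flip permutation p = 0.53125 and 0.875). Depth limits the contigs below 1 CPM, which made up 308108 of those tested.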
